A study of Mus musculus with 4 samples.

Results

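The enzymes described here protect cells from reactive oxygen and clear foreign or reactive molecules. They were taken as all probes whose single gene symbol names a catalase, superoxide dismutase, glutathione peroxidase, peroxiredoxin, thioredoxin, glutaredoxin, glutathione enzyme, haem oxygenase, quinone reductase, metallothionein, aldehyde or aldo-keto enzyme, cytochrome P450, flavin monooxygenase, epoxide hydrolase, sulfotransferase or glucuronosyltransferase, with a value on at least 3 of 4 arrays. This gave 86 probes for 84 genes, of 5828 probes for 5140 genes measured as widely. The array carried 103 probes for 101 genes that fit the rule, and 17 of these probes had no value on any array. These were Sod3, Txnrd2, Gsto1, Akr1c12, Ephx1, Ephx2, Sult1a1, Ugt1a6a, Cyp11a1, Cyp2a12, Cyp2b9, Cyp2f2, Cyp4a10, Cyp4a14, Cyp7a1 and Cyp8b1, and also Fmod, fibromodulin, which the rule catches by its letters and which is no enzyme. Of the central enzymes looked for, Prdx5, Prdx6, Txnip, Mt1, Mt2, Mt3, Aldh1a1, Aldh1l1 and Akr1b3 had no probe annotated with that symbol alone.

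RNA came from the neocortex of mouse embryos on a C57BL/6 background, taken at embryonic day 16. Null mutants with a synaptically silent brain were compared with normal controls, and the series title asks which genes depend on synaptic activity. There were 4 null samples, labelled as biological replicates, each on its own two-colour array beside 1 pool made of 4 control replicates. The null RNA carried the dye Cy3 on replicate 1 and Cy5 on replicates 2, 3 and 4. The source name of the null on replicate 1 gives day 14 where its other labels give day 16. The labels do not say whether a null sample was 1 embryo or several, and p-values measure the spread between these samples only. The labels describe the mutation as a null and name no driver that would limit it to a cell type.

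Each value is a log ratio of both channels, taken as log2, with 5777 to 5873 probes per array and array medians between -0.031 and 0.0044. The numerator of the ratio is not given in the sources used here. A positive or negative sign is therefore as deposited and says nothing on whether the null was higher or lower. Replicates 2 to 4 run the same way whichever channel is on top, and they carry the comparison, with replicate 1 given beside them. A dye bias and a genotype effect cannot be told apart within those 3 arrays. The pool counts as 1 control sample, and a test of the ratio against 0 leaves out the spread between controls. The ratios hold no levels, so that neither the dissected tissue nor the brightness of a probe can be checked from them, and many cytochrome P450 and sulfotransferase genes are known chiefly from the liver. In whole tissue, fewer cells of a type and less RNA per cell cannot be told apart.

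Oxidative metabolism leaks superoxide. Superoxide dismutases turn it into hydrogen peroxide, which catalase, glutathione peroxidases and peroxiredoxins reduce to water. The reducing power comes from NADPH through glutathione and thioredoxin, and the neocortex, with its high oxygen use and unsaturated lipids, is known to depend on this supply. Foreign and reactive molecules are oxidised by cytochrome P450 enzymes and flavin monooxygenases, then coupled to glutathione, sulfate or glucuronic acid and exported. The transcription factor encoded by Nfe2l2 binds antioxidant response elements before many of these genes, and Keap1 holds it in check.

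None of the 84 member probes measured on replicates 2 to 4 passed an adjusted p of 0.05 in limma, as was the case for 0% of all 5720 probes tested. The smallest adjusted p of a member was 0.45, against 0.0788 over all probes. At an unadjusted p under 0.05, limma listed 6 members, 7.14% of them. Of these, 2 had a positive mean, where 5.61% of all probes did, and 4 a negative one, where 4.06% of all probes did. These were the catalase probe 1295, Sult1b1, Cyp2d9 and Cyp2c39 on the negative side and Sult3a1 and the Nqo1 probe 1319 on the positive side. The count depended on replicate 2, without which limma listed 2 members, or 2.38%, beside 4.09% of all probes. Without replicate 3 it listed 5, beside 9.5% of all probes, and without replicate 4 it listed 5, beside 10.9%.

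The mean log ratios of members ran from -0.65 to 0.88, with 38 above 0 and 46 below, beside 2712 and 3008 of all probes. With the arrays centred and put on a common scale, these were 32 and 52, beside 2788 and 2932. Their median was -0.035, beside -0.016 over all probes. A mean beyond 0.5 in size was seen for 5 members, or 5.95%, beside 8.72% of all probes. A positive value on all 3 arrays was seen for 7 members, or 8.33%, beside 16.3% of all probes, and a negative value on all 3 for 17, or 20.2%, beside 17.3%. The median size of a member's mean was 0.13, beside 0.17 over all probes. The 95% interval of the median member reached 0.40 to either side of its mean, which is 1.32-fold if the scale is log2. This interval is for a single probe without adjustment, and members of 1.57-fold to 1.84-fold in size did not pass the adjusted threshold.

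**Figure D1:**
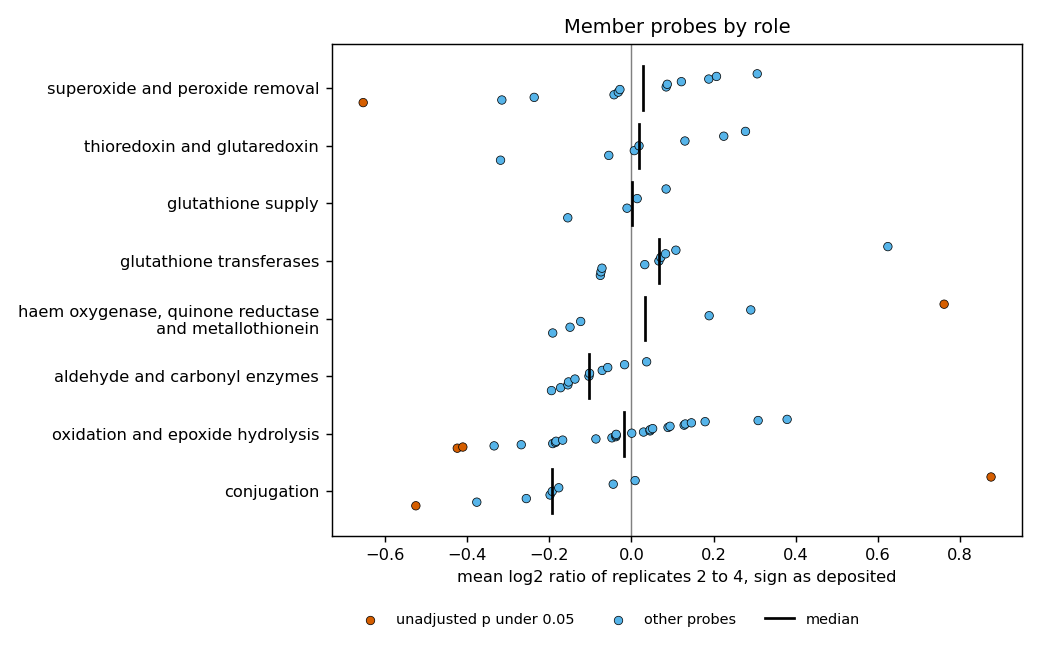
Mean log2 ratio of replicates 2 to 4 (x axis, sign as deposited) for the 84 member probes measured on all 3, by role (y axis); each point is a probe, orange where limma's unadjusted p was under 0.05 (6 probes), and the black bar is the group's median. Most points lie within 0.5 of 0, and the widest spread is in conjugation, from -0.53 for Sult1b1 to 0.88 for Sult3a1.

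Antioxidant response elements were looked for as a description of the genes, since several members are known targets of the factor encoded by Nfe2l2. RefSeq promoter windows of assembly GRCm38.p6 were found for 66 of the 84 genes, as 89 windows of 250 bases before the start. The letters TGACNNNGC, read on both strands, occurred in 8 member windows, or 8.99%, beside 10.2% of the 32851 windows of all genes. They lay before Prdx1, Sod1, Txnrd1, Gclm, Gstm5, Aldh1a2, Aldh9a1 and Cyp4f14. None of these was among the 6 members listed by limma, which may include genes without a window. Genes without a window, such as Hmox1 and Gclc, were not searched, and the lack of a match says nothing about them. Gclm, Prdx1, Sod1 and Txnrd1 are shown 5′ to 3′ as the gene reads, with the match in capitals. In these 4 each match was on the opposite strand. The match of Aldh1a2, also a central enzyme, was on the strand of the gene and is not shown. In Sod1 the capitals overlap a copy of GCGTG.

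Gclm, chr3:122245307-122245556, plus strand: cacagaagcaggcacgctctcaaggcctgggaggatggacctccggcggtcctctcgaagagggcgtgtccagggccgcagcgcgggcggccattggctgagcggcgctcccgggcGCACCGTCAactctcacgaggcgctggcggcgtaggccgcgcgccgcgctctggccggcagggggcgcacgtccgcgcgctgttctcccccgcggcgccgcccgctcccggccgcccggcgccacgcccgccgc
Prdx1, chr4:116685349-116685598, plus strand: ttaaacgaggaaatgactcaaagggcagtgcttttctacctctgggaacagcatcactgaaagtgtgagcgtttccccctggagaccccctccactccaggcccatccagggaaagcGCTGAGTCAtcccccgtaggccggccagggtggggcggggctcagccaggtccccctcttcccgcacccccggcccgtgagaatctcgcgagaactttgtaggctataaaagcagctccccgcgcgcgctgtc
Sod1, chr16:90220512-90220761, plus strand: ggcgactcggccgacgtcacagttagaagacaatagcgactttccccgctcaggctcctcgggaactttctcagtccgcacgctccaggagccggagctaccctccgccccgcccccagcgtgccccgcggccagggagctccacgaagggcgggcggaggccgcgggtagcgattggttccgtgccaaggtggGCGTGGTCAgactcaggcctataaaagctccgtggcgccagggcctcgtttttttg
Txnrd1, chr10:82858956-82859205, plus strand: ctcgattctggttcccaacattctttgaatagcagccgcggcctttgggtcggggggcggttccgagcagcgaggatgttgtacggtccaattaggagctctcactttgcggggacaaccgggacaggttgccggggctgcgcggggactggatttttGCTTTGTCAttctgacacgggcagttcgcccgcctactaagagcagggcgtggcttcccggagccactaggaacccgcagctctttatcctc

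The match began 134 bases before the start in Gclm, 133 in Prdx1, 92 in Txnrd1 and 56 in Sod1. The core of the dioxin response element, GCGTG, which the aryl hydrocarbon receptor binds, was held by 40.4% of member windows, beside 28.2% of all windows. The metal response element, searched as TGCACNC or TGCGCNC, was held by 19.1% beside 21.4%. These motifs can overlap each other, and a match is a description of the letters only.

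Enzymes that remove superoxide and peroxide showed no common sign. Their 12 measured probes split evenly, 6 with a positive and 6 with a negative mean, and their median was 0.028. Catalase, the haem enzyme of peroxisomes that splits hydrogen peroxide, held the member with the smallest p. Its probe 1295 had 0.70 on replicate 1 and -0.66, -0.73 and -0.57 on replicates 2, 3 and 4. All 3 arrays with null RNA in Cy5 were negative within a narrow range, and the array with null RNA in Cy3 was positive by a like amount. The mean of replicates 2 to 4 was -0.65 ± 0.084 (SD, n = 3), 1.57-fold in size, with a 95% interval of -1.0 to -0.31, and limma gave an unadjusted p of 0.00383 and an adjusted p of 0.45. It was the only one of the 6 listed members whose unadjusted p stayed under 0.05 whichever of replicates 2, 3 and 4 was left out, at 0.0353, 0.0113 and 0.015 in limma.

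The second catalase probe, 3371, did not show this. It had -0.011 on replicate 1 and 0.24, -0.25 and -0.12 on replicates 2, 3 and 4, a mean of -0.042 ± 0.25 with no common sign. The probes differed by 0.61 in their means. Of 86 genes on the array with 2 probes, 9 differed by at least as much, the median difference was 0.22, and 59.3% of pairs had the same sign. Which catalase probe follows the RNA was not tested. Catalase is abundant in red blood cells, and of 6 measured red blood cell markers 2 had a positive and 4 a negative mean, from -0.74 for the embryonic globin Hba-x to 0.73 for Tal1; their part in the catalase value was not tested.

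The cytosolic dismutase Sod1 had -0.044 on replicate 1 and 0.044, 0.56 and 0.019 on replicates 2, 3 and 4, so that replicate 3 alone stood clear of 0 and the mean was 0.21 ± 0.30 (SD, n = 3). Its mitochondrial counterpart Sod2 had 0.18 on replicate 1 and 0.14, 0.34 and -0.12 on replicates 2, 3 and 4. For both dismutases the SD over replicates 2 to 4 was larger than the mean.

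Gpx4, which reduces lipid peroxides in membranes, had 0.12 on replicate 1 and -0.33, -0.29 and -0.09 on replicates 2, 3 and 4, negative on the 3 Cy5 arrays, and its mean of -0.24 ± 0.13 had a 95% interval that reached above 0. Gpx1, the abundant cytosolic peroxidase, had -0.58 on replicate 1 and -0.51, 0.31 and 0.12 on replicates 2, 3 and 4, so that its arrays disagreed in sign. Gpx3, the secreted form, had 0.91 on replicate 1 and -0.12, 0.59 and -0.21 on replicates 2, 3 and 4. Gpx5, a form known from the epididymis, had the second lowest mean of the group at -0.32 ± 0.45, carried by replicate 3.

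The peroxiredoxins are thiol peroxidases recycled by thioredoxin. Prdx1, a cytosolic form, had 0.96 on replicate 1 and -0.038, 1.14 and -0.19 on replicates 2, 3 and 4, high on replicates 1 and 3 and slightly below 0 on replicates 2 and 4, which left a mean of 0.31 ± 0.73 (SD, n = 3), the highest of the group. Prdx4, the form of the endoplasmic reticulum, had 0.19 on replicate 1 and 0.029, 0.82 and -0.28 on replicates 2, 3 and 4, again with replicate 3 highest. The mitochondrial Prdx3 had 0.11 on replicate 1 and 0.33, 0.39 and -0.45 on replicates 2, 3 and 4, and the cytosolic Prdx2 had 0.34 on replicate 1 and -0.21, 0.064 and 0.046 on replicates 2, 3 and 4. For each of the 4 peroxiredoxins the SD over replicates 2 to 4 was larger than the mean.

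Thioredoxins and glutaredoxins are small proteins that pass electrons to oxidised thiols. Of 7 measured probes 5 had a positive mean, with a median of 0.018, and on a common scale of the arrays 3 were positive and the median was -0.0027. A positive value on all 3 arrays was seen for 3 of them, or 42.9%, beside 16.3% of all probes.

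Cytosolic thioredoxin, Txn1, had 0.61 on replicate 1 and 0.19, 0.56 and 0.082 on replicates 2, 3 and 4, positive on every array as deposited, with a mean of 0.28 ± 0.25 over replicates 2 to 4. Its reductase Txnrd1, the selenoprotein that recharges it from NADPH, had -0.061 on replicate 1 and 0.24, 0.015 and 0.42 on replicates 2, 3 and 4. Txnl1, a thioredoxin-like protein bound to the proteasome, had 1.52 on replicate 1 and 0.041, 0.22 and 0.13 on replicates 2, 3 and 4, the highest value of any member on replicate 1 beside small ones on the other arrays.

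Mitochondrial thioredoxin, Txn2, had a mean of the opposite sign to that of Txn1. Its values were 0.29 on replicate 1 and -0.51, -0.39 and -0.056 on replicates 2, 3 and 4, negative on the 3 Cy5 arrays, with a mean of -0.32 ± 0.24 (SD, n = 3). Limma gave Txn1 an unadjusted p of 0.138 and Txn2 one of 0.0936, and the difference between them was not tested. Glrx, the cytosolic glutaredoxin, had -0.41 on replicate 1 and 0.039, -0.30 and 0.096 on replicates 2, 3 and 4, and Glrx2 and Glrx3 had means of 0.018 ± 0.42 and 0.0069 ± 0.23.

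The enzymes that make and recharge glutathione lay close to 0, and all 4 probes had means within 0.16 of 0. Gclc, the catalytic subunit of the enzyme that sets the rate of glutathione synthesis, had -0.066 on replicate 1 and -0.19, -0.053 and -0.22 on replicates 2, 3 and 4, small and negative throughout. Its modifier subunit Gclm had 0.034 on replicate 1 and -0.041, 0.76 and -0.46 on replicates 2, 3 and 4, so that the subunits of 1 enzyme did not follow each other on replicate 3. Gss, glutathione synthetase, had -0.58 on replicate 1 and -0.22, 0.41 and -0.22 on replicates 2, 3 and 4. Gsr, glutathione reductase, had -0.45 on replicate 1 and -0.026, 0.0085 and 0.059 on replicates 2, 3 and 4, within 0.059 of 0 on the Cy5 arrays, and replicate 1 lay apart.

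Glutathione transferases couple glutathione to reactive molecules. Of 9 probes tested 6 had a positive mean, and the median was 0.067. On all 3 arrays 0 were positive, beside 16.3% of all probes, and 0 were negative, beside 17.3%. On a common scale of the arrays 5 were positive and the median was 0.029. Replicate 3 was positive for 8 of the 9, and its group median of 0.33 stood beside -0.11 on replicate 2 and -0.16 on replicate 4.

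Gsta2, an alpha class transferase, had -0.94 on replicate 1 and -0.86, 2.29 and 0.44 on replicates 2, 3 and 4, the highest value of any member on replicate 3, and its mean of 0.62 ± 1.58 had an SD larger than itself. Gstm2 had -0.13 on replicate 1 and -0.80, 0.73 and 0.39 on replicates 2, 3 and 4, again with replicates 2 and 3 on opposite sides of 0. Gstm1, a mu class form, had 0.24 on replicate 1 and -0.31, 0.33 and -0.25 on replicates 2, 3 and 4, and Gstp1, the pi class form, had 0.20 on replicate 1 and -0.12, 0.042 and -0.14 on replicates 2, 3 and 4. Gstm6 lacked a value on replicate 3 and was not tested; its values on replicates 1, 2 and 4 were -1.47, -0.0029 and -0.44. The other 5, Gsta4, Gstt1, Gstt2, Gstz1 and Gstm5, had means between -0.074 and 0.083.

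**Figure D2:**
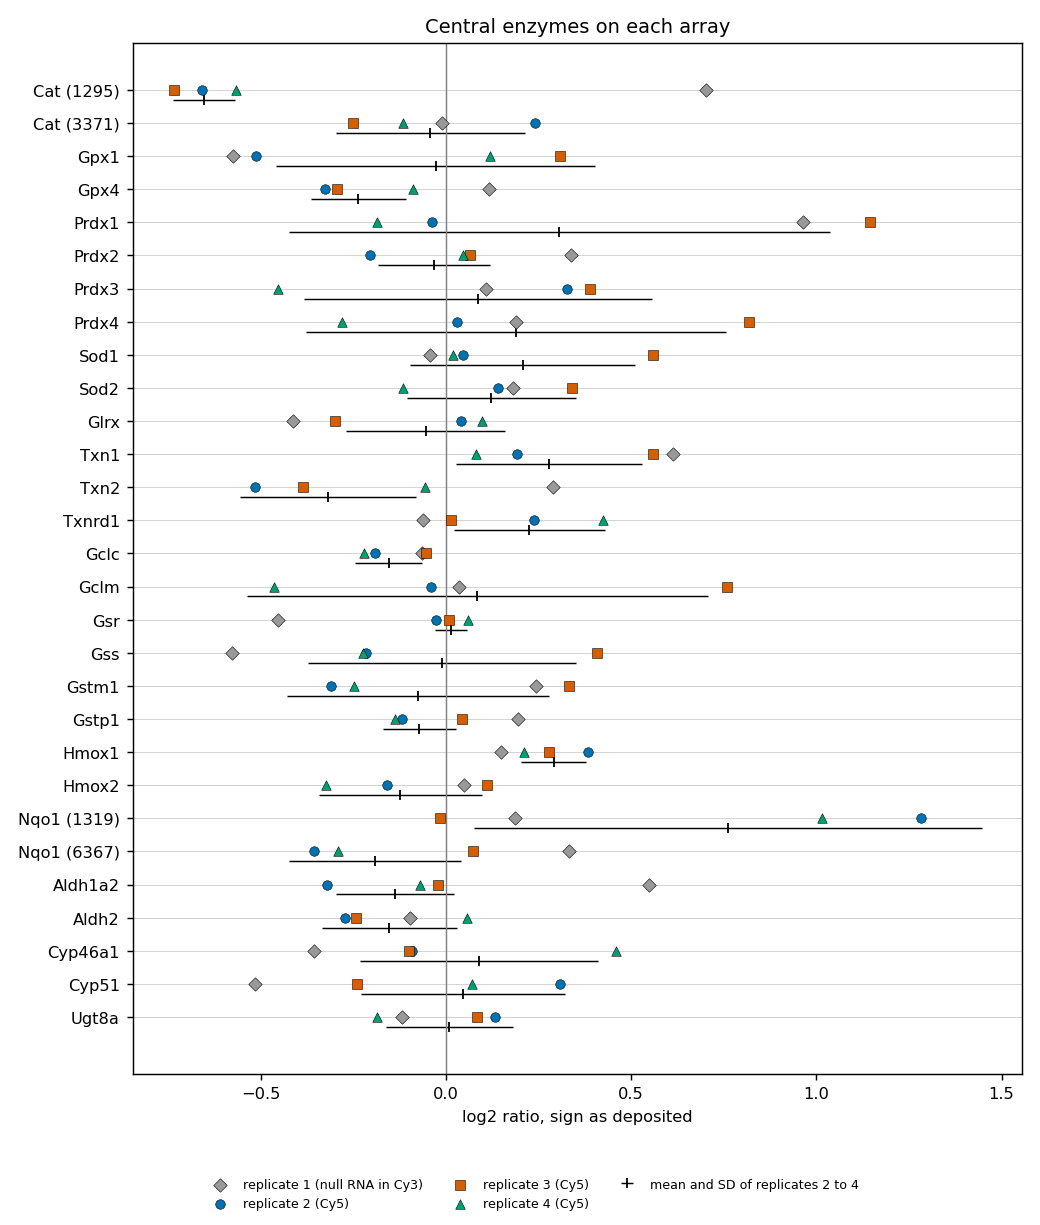
Log2 ratio (x axis, sign as deposited) of the 29 measured probes of central enzymes (y axis), one symbol per array, with the mean and SD of replicates 2 to 4 drawn below each row. Catalase probe 1295 has 3 arrays between -0.73 and -0.57 and replicate 1 at 0.70, while Prdx1, Prdx4, Sod1 and Gclm have replicate 3 far to the right of replicates 2 and 4.

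Haem oxygenases, quinone reductases and metallothionein include classical inducible defences. Of their 6 probes 3 had a positive mean, and the median was 0.033, or -0.015 on a common scale of the arrays. Hmox1, the inducible enzyme that breaks down haem and a textbook target of Nfe2l2, had 0.15 on replicate 1 and 0.38, 0.28 and 0.21 on replicates 2, 3 and 4. All 4 values were positive as deposited and close together, with a mean of 0.29 ± 0.087 over replicates 2 to 4, and the 95% interval of -0.06 to 0.64 held 0. Hmox2, the constitutive form of neurons, had 0.049 on replicate 1 and -0.16, 0.11 and -0.32 on replicates 2, 3 and 4 and no common sign.

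Nqo1, which reduces quinones to stable hydroquinones and is another such target, was measured by 2 probes that disagreed. Probe 1319 had 0.18 on replicate 1 and 1.28, -0.015 and 1.02 on replicates 2, 3 and 4, high on replicates 2 and 4 and close to 0 on replicate 3. Its mean was 0.76 ± 0.69 (SD, n = 3), 1.70-fold in size, and limma gave an unadjusted p of 0.0321 and an adjusted p of 0.484. Probe 6367 had 0.33 on replicate 1 and -0.36, 0.073 and -0.29 on replicates 2, 3 and 4, a mean of -0.19 ± 0.23. The means differed by 0.95, the largest difference among the 86 genes with 2 probes. Without replicate 2 probe 1319 had a mean of 0.50, without replicate 3 one of 1.15 and without replicate 4 one of 0.63, with an unadjusted p of 0.174, 0.000967 and 0.122 in limma. The adjusted p ranged from 0.455 to 0.97.

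Nqo2, a related reductase, had a mean of 0.19 ± 0.55, with replicate 3 highest at 0.82. Mt4, a metallothionein known from squamous epithelia, had 0.29 on replicate 1 and -0.29, -0.12 and -0.044 on replicates 2, 3 and 4. It was the only metallothionein among the members.

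**Figure D3:**
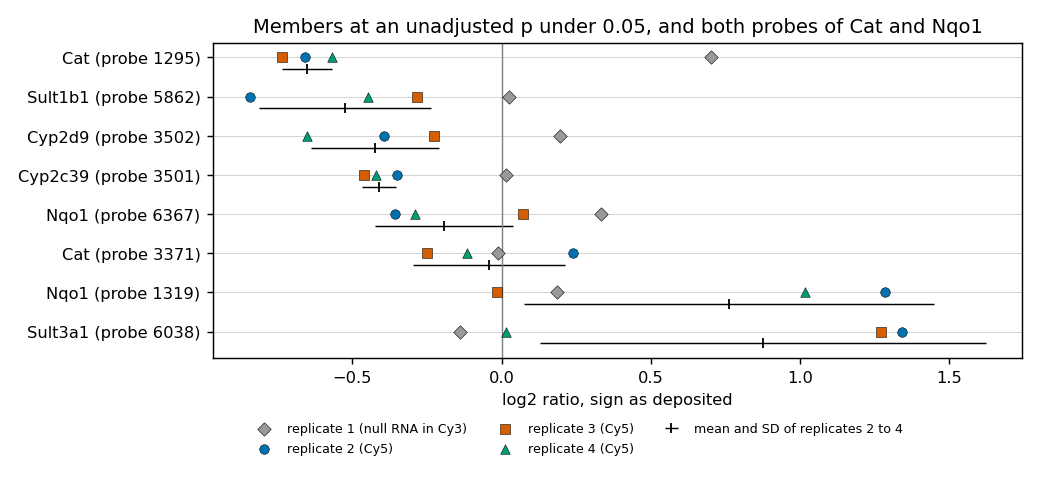
Log2 ratio (x axis, sign as deposited) on each array for the 6 member probes at an unadjusted p under 0.05 in limma and for both probes of Cat and Nqo1 (y axis), with the mean and SD of replicates 2 to 4 below each row. The Cat probes differ by 0.61 and the Nqo1 probes by 0.95 in their means, and replicate 1 lies on the opposite side of 0 from the mean for 5 of the 6 listed probes.

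Aldehyde dehydrogenases and aldo-keto reductases oxidise or reduce reactive aldehydes, and some make retinoic acid. Of 11 probes tested 10 had a negative mean and 1, Aldh1a3, a positive one, with a median of -0.10. Over all 5720 probes 3008 had a negative mean. On a common scale of the arrays 9 were negative. A negative value on all 3 arrays was seen for 3, or 27.3%, beside 17.3% of all probes. A positive value on all 3 was seen for 0, beside 16.3%. The sizes were small, between -0.19 and 0.037, and 0 reached an unadjusted p under 0.05 in limma, beside 9.67% of all probes. On replicate 1 the group median was 0.11.

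Aldh1a2 makes retinoic acid and in the embryonic forebrain is known mainly from the meninges. It had 0.55 on replicate 1 and -0.32, -0.022 and -0.07 on replicates 2, 3 and 4, negative on the Cy5 arrays and positive on replicate 1. Of 8 measured markers of meninges and mesenchyme 7 had a negative mean, with a median of -0.26. With each array centred on its median 6 did, and on a common scale of the arrays 7 did. On replicates 2 to 4, 0 of them were positive throughout, beside 16.3% of all probes, and 4 were negative throughout, beside 17.3%. On replicate 1, where Aldh1a2 was positive, 4 of the 8 were positive and their median was -0.12. The part of these markers in the value of Aldh1a2 was not tested. Aldh1a3, a related retinaldehyde enzyme, had 0.30 on replicate 1 and -0.30, 0.34 and 0.07 on replicates 2, 3 and 4.

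Aldh1a7 had the lowest mean of the group at -0.19 ± 0.14, with -0.015 on replicate 1 and -0.34, -0.048 and -0.20 on replicates 2, 3 and 4. Aldh2, the mitochondrial enzyme that clears acetaldehyde, had -0.099 on replicate 1 and -0.27, -0.24 and 0.057 on replicates 2, 3 and 4. Akr1c6, a hydroxysteroid dehydrogenase, had -0.60 on replicate 1 and 0.32, 0.83 and -1.46 on replicates 2, 3 and 4, the widest spread of the group, and Aldh9a1 had replicate 3 at -0.83 against 0.48 on replicate 2. Akr1a1, Akr1e1, Aldh18a1, Aldh3a1 and Aldh3a2 had means between -0.17 and -0.017.

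Cytochrome P450 enzymes and flavin monooxygenases insert oxygen into their substrates. Of 26 probes tested 13 had a positive and 13 a negative mean, with a median of -0.018. On all 3 arrays 6 were negative, or 23.1%, beside 17.3% of all probes, and 1, Cyp3a13, was positive, or 3.85%, beside 16.3%.

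Members of known function in the brain or in retinoid and sterol turnover had means within 0.19 of 0. Cyp46a1, which removes cholesterol from neurons by hydroxylation, had -0.36 on replicate 1 and -0.093, -0.099 and 0.46 on replicates 2, 3 and 4. Cyp51, a demethylase of cholesterol synthesis, had -0.52 on replicate 1 and 0.31, -0.24 and 0.069 on replicates 2, 3 and 4. Cyp26a1, which breaks down retinoic acid, had -0.017 on replicate 1 and 0.16, -0.19 and 0.42 on replicates 2, 3 and 4, and Cyp7b1, an oxysterol hydroxylase, had 0.26 on replicate 1 and -0.27, -0.26 and -0.027 on replicates 2, 3 and 4.

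Both probes of the group listed by limma belong to families known from the liver. Cyp2c39 had 0.016 on replicate 1 and -0.35, -0.46 and -0.42 on replicates 2, 3 and 4, and the 3 Cy5 arrays lay within a narrow range, with a mean of -0.41 ± 0.056 (SD, n = 3), 1.33-fold in size, an unadjusted p of 0.0262 and an adjusted p of 0.473. Cyp2d9 had 0.20 on replicate 1 and -0.40, -0.23 and -0.65 on replicates 2, 3 and 4, a mean of -0.42 ± 0.21, 1.34-fold in size, with an unadjusted p of 0.0354 and an adjusted p of 0.488 in limma. Cyp2c39 was no longer listed when any of the 3 arrays was left out, with an unadjusted p between 0.0564 and 0.110. These families hold many similar genes, and whether a probe separates them is not known here.

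Cyp2e1, the ethanol-oxidising form, had 0.094 on replicate 1 and -0.34, -0.25 and -0.21 on replicates 2, 3 and 4, also negative on the Cy5 arrays, as was Cyp4b1, with a mean of -0.33 ± 0.29. At the other end, Cyp2g1, an olfactory form, had -0.17 on replicate 1 and 0.55, 0.71 and -0.12 on replicates 2, 3 and 4, and Cyp2j6 a mean of 0.31 ± 0.35. Cyp27b1, the vitamin D hydroxylase, lacked replicate 3 and was not tested; its values on replicates 1, 2 and 4 were 0.075, 0.09 and -0.19. Fmo1, Fmo2 and Fmo5 had means of 0.029 ± 0.31, 0.094 ± 0.22 and -0.19 ± 0.27. The other 13 tested probes of the group had means between -0.18 for Cyp1b1 and 0.18 for Cyp3a13. They include Cyp17a1, Cyp21a1, Cyp24a1 and Cyp39a1 of steroid, vitamin D and oxysterol metabolism, and Cyp2a4, Cyp2b19, Cyp2c37, Cyp3a41a, Cyp4a12a, Cyp4f14 and Cyp4f15.

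In conjugation, sulfotransferases add sulfate and glucuronosyltransferases add glucuronic acid, which makes a molecule soluble. Of 9 probes 7 had a negative mean, with a median of -0.19, beside 3008 of 5720 over all probes. On all 3 arrays 3 were negative, or 33.3%, beside 17.3% of all probes. There 1 was positive throughout, or 11.1%, beside 16.3%. The group median was negative on each of replicates 2 to 4. The group also held the member with the highest mean.

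Sult3a1, an amine sulfotransferase, had -0.14 on replicate 1 and 1.34, 1.27 and 0.015 on replicates 2, 3 and 4, high on replicates 2 and 3, close to 0 on replicate 4 and below it on replicate 1. The mean was 0.88 ± 0.75 (SD, n = 3), 1.84-fold in size, with an unadjusted p of 0.0243 and an adjusted p of 0.473 in limma. Without replicate 2 the mean was 0.64, without replicate 3 it was 0.68 and without replicate 4 it was 1.31, with an unadjusted p of 0.125, 0.0982 and 0.000939 in limma. The adjusted p ranged from 0.336 to 0.97.

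Sult1b1, which acts on thyroid hormones and phenols, had 0.024 on replicate 1 and -0.84, -0.28 and -0.45 on replicates 2, 3 and 4, and its mean of -0.53 ± 0.29 was 1.44-fold in size, with an unadjusted p of 0.0218 and an adjusted p of 0.473 in limma. Sult1c1 had 0.0046 on replicate 1 and -0.38, -0.73 and -0.022 on replicates 2, 3 and 4, negative on the Cy5 arrays as well. Sult4a1, the form of neurons, had 0.15 on replicate 1 and -0.29, -0.66 and 0.18 on replicates 2, 3 and 4, with replicate 4 on the other side of 0. Sult5a1 had -1.94 on replicate 1 and -1.30, 1.03 and -0.32 on replicates 2, 3 and 4, the lowest value of any member on replicates 1 and 2 and a high one on replicate 3.

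Ugt8a, which makes the galactolipids of myelin, had -0.12 on replicate 1 and 0.13, 0.083 and -0.19 on replicates 2, 3 and 4, within 0.19 of 0 on each array. Ugt2b5 and Ugt2a1 had means of -0.19 ± 0.22 and -0.18 ± 0.29, and Sult2b1, a cholesterol sulfotransferase, had -0.044 ± 0.24.

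The arrays differed from each other in how many members lay far from 0. On replicate 3 a value above 0.5 was seen for 14 members, or 16.7%, beside 17.4% of all probes on that array. On replicate 1 it was seen for 9, or 10.5%, beside 7.77% of all probes. It was seen for 5 on replicate 2, or 5.81%, beside 6.53%, and for 2 on replicate 4, or 2.33%, beside 6.4%. Below -0.5 lay 7, 7, 6 and 4 members on replicates 1 to 4, or 8.14%, 8.14%, 7.14% and 4.65%, beside 12.6%, 9.17%, 13.8% and 6.35% of all probes. The SD over members was 0.46, 0.39, 0.49 and 0.31 on replicates 1 to 4, beside 0.48, 0.43, 0.63 and 0.40 over all probes, so that members varied less than all probes on each array. The median of all members was 0.085, -0.097, 0.049 and -0.10 on replicates 1 to 4.

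**Figure D4:**
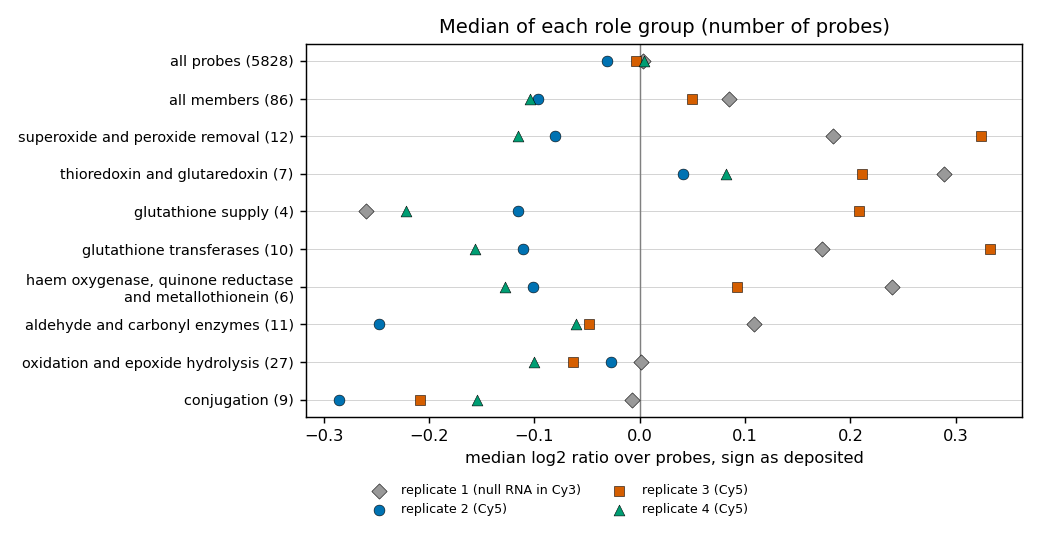
Median log2 ratio on each array (x axis, sign as deposited) of all probes, all members and each role group (y axis, number of probes in brackets), one symbol per array. Replicate 3 lies to the right of replicates 2 and 4 for the peroxide, thioredoxin and glutathione groups, up to 0.33 for glutathione transferases, while conjugation is negative on each array, from -0.29 to -0.0075.

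The log ratios of members had low correlations from array to array. For the 84 members with 4 values, replicates 2 and 3 had a Pearson's r of 0.028, beside 0.24 over the 5687 such probes of the array. Replicates 2 and 4 had 0.13, beside 0.23, and replicates 3 and 4 had -0.068, beside -0.0022. Replicate 1 had 0.17, -0.23 and 0.016 with replicates 2, 3 and 4 over the members, beside -0.0195, 0.0773 and -0.1165. The points share the control pool, and the values are a description.

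**Figure D5:**
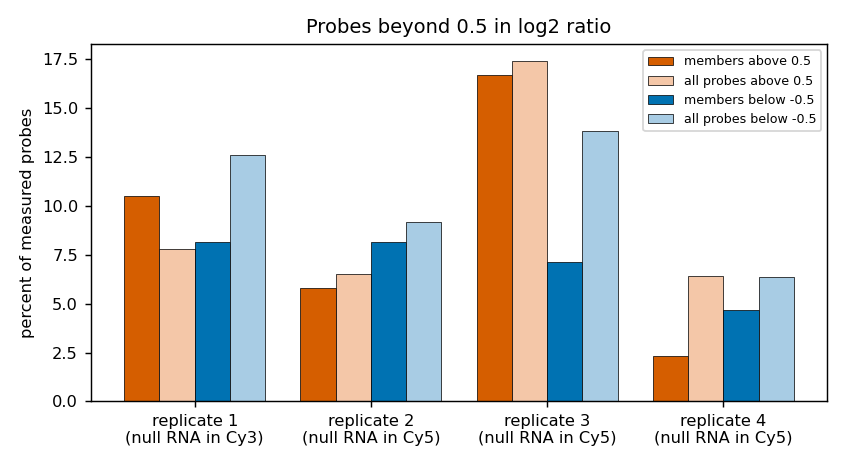
Percent of measured probes (y axis, from 0) with a log2 ratio above 0.5 or below -0.5 on each array (x axis), for the 84 to 86 members and for all probes. Members lie below all probes in each pair of bars except above 0.5 on replicate 1, where they reach 10.5% beside 7.77%.

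Replicate 1 can be read with its sign as deposited or turned, depending on the unknown numerator. Among the 17 members negative on all of replicates 2 to 4, replicate 1 had the opposite sign as deposited in 13, or 76.5%, beside 55.3% of the 985 such probes among all. Among the 7 positive ones it was opposite in 4, or 57.1%, beside 52.3%.

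With replicate 1 turned, limma on 4 arrays listed 5 members at an unadjusted p under 0.05, or 5.95%, beside 8.44% of the 5687 probes. An adjusted p under 0.05 was reached by 0% of probes in that fit, and the smallest adjusted p of a member was 0.371. It belonged to the catalase probe 1295, at -0.67 ± 0.073 (SD, n = 4). Txn2 entered the list at -0.31 ± 0.19 (SD, n = 4), and Sult3a1, Sult1b1 and Cyp2d9 stayed on it at 0.69, -0.40 and -0.37.

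With replicate 1 as deposited, 2 members were listed, or 2.38%, beside 7.12% of all probes, and 0.0352% of all probes, none of them a member, passed the adjusted threshold. The listed members were Nqo1 probe 1319, at 0.62 ± 0.63 (SD, n = 4), and Txn1, at 0.36 ± 0.26 (SD, n = 4), with an adjusted p of 0.663 each in limma. Catalase probe 1295 then had -0.31 ± 0.68 (SD, n = 4). Nqo1 probe 1319 was thus listed under this sign and not under the other, and Sult3a1, Sult1b1 and Cyp2d9 the reverse.

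Other genes of these pathways were described from fixed lists. Among 18 measured regulators of 19, 16 had a negative and 2 a positive mean on replicates 2 to 4, with a median of -0.24, and 8, or 44.4%, were negative on all 3 arrays, beside 17.3% of all probes. On a common scale of the arrays 15 were negative. Lists of other genes had like shares of probes negative on all 3 arrays. The share was 44.4% for neocortex, 50% for meninges and mesenchyme, 41.7% for vessel and 40% for radial glia and astroglia markers. It was 40% for choroid plexus, 33.3% for red blood cell and 11.1% for microglia and leukocyte markers. Nfe2l2, the activator of antioxidant genes, had -0.051 on replicate 1 and -0.031, -0.22 and -0.20 on replicates 2, 3 and 4, and Keap1, its inhibitor, had -0.19 on replicate 1 and -0.40, -0.18 and 0.45 on replicates 2, 3 and 4. Nfe2l1, a relative of Nfe2l2, was the 1 regulator at an unadjusted p under 0.05 (4.06% of all probes on the negative side), with -0.039 on replicate 1 and -0.51, -0.59 and -0.25 on replicates 2, 3 and 4, a mean of -0.45 ± 0.18 (adjusted p of 0.473 in limma). Mafk, a small Maf partner of both, had -0.34 ± 0.11, Mtf1, the metal-sensing factor, had -0.44 ± 0.34, and Ahr, the aryl hydrocarbon receptor, had -0.17 ± 0.13. The 2 regulators with a positive mean were Nfe2l3, at 0.13 ± 0.16, and Foxo1, at 0.086 ± 0.64. On replicate 1 the median of the regulators was -0.045.

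A list for NADPH, thiols and iron handling had 10 of 32 genes measured, 5 positive and 5 negative, with a median of -0.0069. An unadjusted p under 0.05 in limma was reached by 0 of them, beside 9.67% of all probes. Median-centring each array gave a median of 0.0032, and a common scale of the arrays gave -0.0101. Measured were Idh1, Idh2, Me1, Tkt, Taldo1, Msrb1, Msrb3, Ccs, Park7 and Srxn1. The values therefore do not cover iron genes of the list such as Fth1 and Ftl1, or Slc7a11 and Slc3a2 of thiol supply. Srxn1, which repairs overoxidised peroxiredoxins, had -0.35 ± 0.21, and Tkt, transketolase, had -0.32 ± 0.35. The highest means were those of Taldo1, at 0.076 ± 0.18, and Idh1, at 0.051 ± 0.16.

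Other detoxification genes had 18 of 38 members tested, 6 positive and 12 negative, with a median of -0.12. At an unadjusted p under 0.05 limma listed 4, all negative, beside 4.06% of all probes on that side. Adh4, an alcohol dehydrogenase, had 0.085 on replicate 1 and -0.73, -0.62 and -0.96 on replicates 2, 3 and 4, a mean of -0.77 ± 0.17 (adjusted p of 0.45 in limma). The efflux pumps Abcg2, Abcc5 and Abcb1a had -0.50 ± 0.11, -0.48 ± 0.15 and -0.37 ± 0.018. Abcg2 and Abcb1a are known from brain vessels. Of 12 measured vessel markers, Abcb1a among them, 9 had a negative and 3 a positive mean, from -1.41 to 0.20. The positive ones were Kdr, Pecam1 and Flt1, at 0.20, 0.17 and 0.062. At an unadjusted p under 0.05 limma listed 5, all negative and with Abcb1a again among them, beside 4.06% of all probes on that side. The part of vessels in the values of the pumps was not tested.

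Markers of other cell types were uneven on the same arrays. Microglia and leukocyte markers had 6 of 9 positive, with a median of 0.31. Markers of radial glia and astroglia had 8 of 10 probes negative, with a median of -0.19. Choroid plexus markers had 3 of 5 positive, from -0.68 to 1.27, and neocortical neuron and progenitor markers had 8 of 9 negative, with a median of -0.10. Their part in the member values was not tested, and none of these lists could be read as a level.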

How the data were processed

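RNA levels were measured on 4 two-colour arrays. The values are the authors' processed log ratios, 1 column per array with 0 columns left unused, and were taken as log2 because they are centred near 0 and too wide for log10. The log base, numerator, background correction and normalization of the deposited ratios, and the signal over background, are not stated in the labels or in the table. The number of arrays limits the precision. The gene that is mutated is not reported here.

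Gene symbols came from the platform annotation. The Entrez IDs of all 86 member probes were found in the RefSeq table of assembly GRCm38.p6, and 0 symbols changed. Probes of a gene were kept apart.

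Mean log ratios of replicates 2 to 4 were tested against 0, two-sided, in limma 3.58.1 (lmFit, eBayes; R 4.3.3), over the 5720 probes with a value on each, with Benjamini-Hochberg adjustment over all of them. Both fits of 4 arrays used 5687 probes. The steps were tested on simulated data. Named were central enzymes, members at an unadjusted p under 0.05, the extremes of each role group and the 3 per sign with the smallest p in each fit of 4 arrays. The remaining members and the pathway genes were named to account for their groups, after their values were seen. Members and lists were chosen with earlier results of these data known. As alternatives, replicate 1 was turned or kept, and a dye term was added to the fit of 4 arrays with replicate 1 turned. The dye term thus rests on that assumed sign and on replicate 1, the only array with null RNA in Cy3. Array weights or a robust variance prior was used, arrays were centred or scaled, and a missing value was allowed. Probes were averaged by gene, and probes beyond 4 in size or single arrays were left out.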

Additional observations from a re-analysis of the deposited data

Results flagged for a closer look

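With 4 arrays, a value was marked where it lay apart from the other 3 by more than Dixon's 95% critical value, and chance marks about 5% of groups. The sign of replicate 1 is unknown. Each of the 38 named probes was therefore looked at with replicate 1 as deposited and with it turned. With replicate 1 as deposited, the catalase probe 1295 had replicate 1 apart at 0.70, against a range of -0.73 to -0.57 on the other arrays, and turning the sign removes this gap. Gsr had replicate 1 apart at -0.45, against -0.026 to 0.059. Sod1 had replicate 3 apart at 0.56 under either sign. With replicate 1 turned, replicate 3 was apart for Gstm1 at 0.33 and for Nqo1 probe 6367 at 0.073, and replicate 4 was apart for Ugt8a at -0.19.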

How the results depend on the processing

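No member passed an adjusted p of 0.05 in limma under any alternative run. The median over members kept its negative sign and lay between -0.11 and -0.0054. The median over all probes was negative throughout as well, between -0.0208 and -0.0061. With replicate 1 as deposited the members had -0.0054, beside -0.0154 over all probes. At an unadjusted p under 0.05 the 2 positive members became 1 with replicate 1 turned and 0 with a dye term added to that fit. They became 1 with probes averaged by gene and 5 with array weights. The 4 negative members became 0 with replicate 1 as deposited and 7 with array weights. Of either sign, array weights listed 14.3% of members beside 18.7% of all probes. The shares were 5.95% beside 8.44% with replicate 1 turned and 2.38% beside 7.12% with it as deposited. They were 3.57% beside 6.73% with the dye term and 4.88% beside 9.69% with probes averaged by gene. With a dye term 3 negative members were listed, but of the 4 only Cat probe 1295 remained, with Txnl1 and Akr1a1 beside it, while Sult1b1 had -0.27, Cyp2c39 -0.21 and Cyp2d9 -0.31 (unadjusted p of 0.155, 0.175 and 0.0936 in limma). Averaging by gene took Cat off the list, at -0.35 with an unadjusted p of 0.0574 in limma. Leaving out replicate 2, 3 or 4 gave 1 to 3 positive and 1 to 4 negative members. Of either sign these were 2.38%, 5.81% and 5.95% of members, beside 4.09%, 9.5% and 10.9% of all probes. Of 380 values of the 38 named probes under other alternatives, 5 changed sign by at least 1 SD of the arrays: Aldh1a2 at 0.034 and Gsr at -0.10 with replicate 1 as deposited, Glrx at 0.18 and Txn1 at -0.17 with a dye term, and Nqo1 at 0.28 with both of its probes averaged, which mixes them by construction. Apart from that last value, the cause was not tested. Sign changes of any size occurred in 28 of the 380 values and in 20 of 114 with an array left out. No paired analysis was possible because each null sample was set against the same control pool. Without brightness values dim probes could not be judged.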
